A study of Drosophila melanogaster with 6 samples.

Results

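Flies carrying spz[rm7], a mutant allele of spz, which encodes the ligand of Toll, were compared with gyc76c[revert] control flies after each of 2 injections. The comparison used 4 of the 6 arrays of the series and every probe set on them. The arrays are paired by injection, so that each gene has a ratio of rm7 to revert after phosphate-buffered saline (PBS) and another after Staphylococcus saprophyticus, a Gram-positive bacterium. All animals were whole adults reared at 25 °C and homogenized 12 hours after injection, and 1 array was hybridised per genotype and injection. The other 2 arrays hold gyc76c[KG03723], mutant for Gyc76C, a guanylate cyclase of the cell surface, and serve here as a second genotype to read values against. The genotypes are called rm7, revert and KG03723. The labels give no sex, number of flies, zygosity or genetic background. Effects of the spz allele and of other differences between these stocks therefore cannot be told apart. In whole flies, fewer cells of a type and less RNA per cell cannot be told apart either.

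Spätzle is a secreted, cystine-knot growth-factor-like protein that circulates as an inactive precursor. Recognition of Gram-positive bacteria or fungi starts a cascade of serine proteases that ends in cleavage of Spätzle, and the cleaved form binds the receptor Toll. Inside the cell the adaptors Myd88, tube and pelle then release the NF-kappaB factors Dif and dorsal from cactus. The fat body answers with secreted peptides such as drosomycin and the Bomanins. A second pathway, IMD, acts through Relish and mainly serves the response to Gram-negative bacteria.

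Values are MAS5 intensities, and a signal under the floor of 42.7, the 40th percentile of all values, was set to that floor before ratios were taken. Of 11982 genes with a probe set of their own, 10017 were above the floor on at least 1 of the 4 arrays. With 1 array per group, a ratio carries no error and no p-value. The one test is an additive limma fit of genotype and injection over the 6 arrays. It takes in 9540 genes, those whose signal exceeded the floor on 3 or more arrays. In that fit the 2 injections stand in for replicates of a genotype. Its error has 2 residual degrees of freedom and is the departure from additivity, so a gene whose ratio differs between the injections has a large error.

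The 6 arrays shared a trimmed mean of 500, and the share of probe sets past the floor ran from 58.9% to 61.0%. Across the fitted genes, the log2 signals of the 2 rm7 arrays correlated with a Pearson r of 0.983 and those of the 2 revert arrays with 0.978, while an rm7 array and a revert array gave 0.946 to 0.955. Of the 4 arrays, that of rm7 after bacteria had the highest 3'/5' ratios of the actin and GAPDH controls (2.81 and 2.68), and that of revert after bacteria the lowest (2.29 and 1.99). The transcript of spz itself read 1059 and 1122 in revert and 951 and 813 in rm7, after PBS and after bacteria. Both rm7 values lay below both revert values, and the fitted difference of -0.31 ± 0.15 (SE, log2) did not pass (limma adjusted p = 0.362). The labels do not say whether the lesion changes the amount of transcript, and the level is no check of the genotype.

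A total of 161 genes, 1.61% of the 10017, were at least 2-fold higher in rm7 after both injections, and 183, or 1.83%, were at least 2-fold lower after both. The lower group held most of the Toll-responsive peptide genes, the gene of the Spätzle-processing protease, a pair of Turandot stress genes and a pair of metallothionein genes. The higher group held the drosomycin-like gene Drsl4 and the Toll-family receptor gene Tollo. Cytochrome P450 genes were in both groups, 9 of the 72 measured in the higher and 6 in the lower. After PBS alone, 254 genes (2.54%) were higher and 420 (4.19%) lower. After bacteria alone, 548 (5.47%) were higher and 290 (2.9%) lower, a split that turned to 382 and 353 with quantile and to 392 and 345 with cyclic loess normalization. Of the genes higher after PBS 63.4% were also higher after bacteria, and of those higher after bacteria 29.4% were higher after PBS. For the lower genes these shares were 43.6% and 63.1%. With the arrays quantile normalized, 160 genes were higher and 186 lower after both injections, and 148 and 171 of them were genes counted above.

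In the limma fit 249 genes passed as higher in rm7 than in revert, 2.61% of those fitted, and 286, or 3.0%, passed as lower. These counts rest on few arrays. Without the rm7 bacteria array 72 passed as higher and 162 as lower, and without the rm7 PBS array 144 and 190. Of the genes apart after both injections, 142 of the higher and 182 of the lower were in the fit, and 133 and 173 of them passed. The fit and the fold rule read the same arrays, so these are not independent results. Against KG03723 the same fit called 256 genes higher in rm7 (2.68%) and 327 lower (3.43%).

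**Figure D1:**
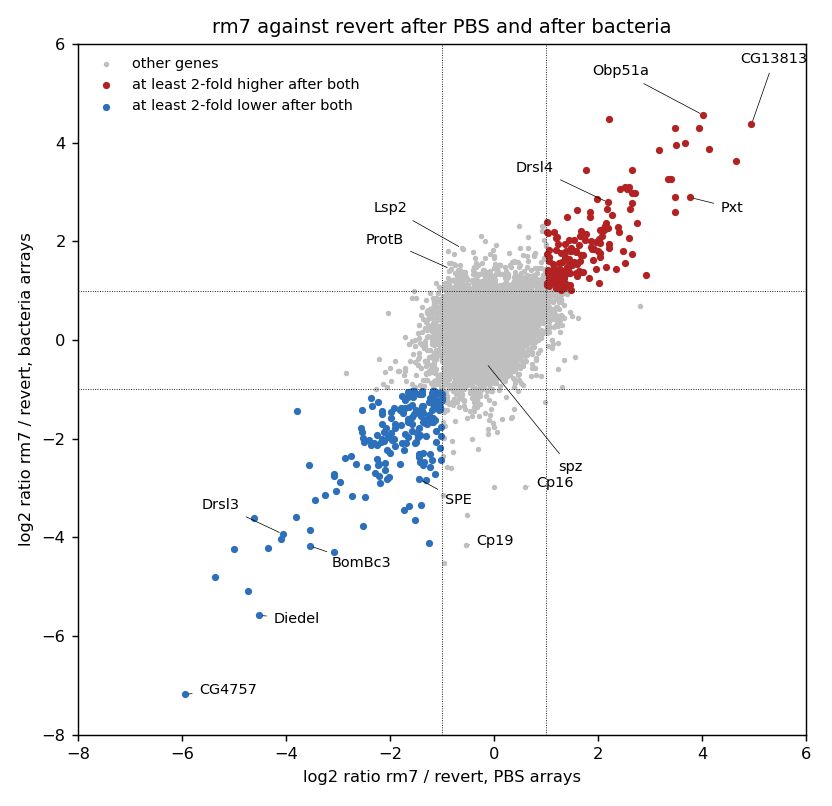
Each point is 1 of the 10017 genes, placed by its log2 ratio of rm7 to revert on the PBS arrays (horizontal) and on the bacteria arrays (vertical). Dotted lines mark 2-fold. The 161 genes in red and 183 in blue lie past 2-fold in the same direction on both axes, from CG13813 at the upper right to CG4757 at the lower left, while spz lies near the centre and Cp16, Lsp2 and ProtB lie off the diagonal.

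The ratios were similar after the 2 injections for most of these genes. Of the 161 higher genes, 125 had ratios within 1.5-fold of each other, as did 134 of the 183 lower genes. The median log2 ratio of the higher genes was 1.58 after PBS and 1.76 after bacteria, and that of the lower genes -1.59 and -1.84. In the lower group 20 genes were further apart after bacteria by over 2-fold, and 6 were further apart after PBS by that much. Across the 8885 genes above the floor on all 4 arrays, the 2 ratios correlated with a Pearson r of 0.44. Genes are not independent replicates, and this r is a description of these arrays. Only 3 genes, CG43072, Rsph4a and CG32445, were at least 2-fold apart in opposite directions. At the edge of the fold rule, the transcription factor gene mid read 182 and 191 in revert and 90.6 and 89.6 in rm7, just inside, while CG18609 read 629 and 697 against 284 and 350, just outside. These 2 were picked for their place at the edge.

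The Toll-responsive peptide genes were the most affected of the lists examined with at least 5 measured members. Of 15 measured members 9 were at least 2-fold lower in rm7 after both injections and 1 was higher, against 1.83% and 1.61% of all genes. Their median log2 ratio was -1.39 after PBS and -1.43 after bacteria, where the median of all genes was 0.02 and 0.03. In the limma fit 11 passed as lower and 1 as higher. The name is that of the list, and not every member rose after bacteria in revert. There the log2 ratio of bacteria to PBS was -0.14 for Drsl2 and -0.33 for Drsl4. It was 0.28 for Drsl3, and the remaining members lay between 0.07 (BomS4) and 1.45 (BomT2). Drsl2 and Drsl3 are among the 9 lower genes, and Drsl4 is the 1 higher gene. Members of the Bomanin and the drosomycin-like families resemble each other in sequence, and cross-hybridisation between them was not tested.

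The Bomanins are short secreted peptides that flies need to resist Gram-positive bacteria and fungi. BomBc3 read 8977 after PBS and 20235 after bacteria in revert, and 765 and 1123 in rm7. Both rm7 signals thus lay far below both revert signals, at log2 ratios of -3.55 and -4.17 (limma log2 -3.86 ± 0.23 SE, adjusted p = 0.000438). In KG03723 it read 4793 and 14889, and rm7 was lower than KG03723 as well (limma adjusted p = 0.000691). Its neighbour BomT3 read 6566 and 12794 in revert and 1427 and 1721 in rm7, which is 4.6-fold and 7.43-fold lower. The other measured members lie in a cluster on chromosome arm 2R. There BomBc2 stood at 9958 and 26637 in revert against 1773 and 2942 in rm7. BomT2 stood at 4226 and 11515 against 1572 and 2061, 2.69-fold lower after PBS and 5.59-fold lower after bacteria. BomS5 was 2.63-fold and 2.69-fold lower. Next in gene order, BomBc2, BomS2, BomT2 and BomS5 are neighbours, and all 4 were in the lower group.

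BomS2 differed in how the other mutant read. It stood at 14956 and 29100 in revert, 3181 and 5029 in rm7, and 4168 and 18727 in KG03723. The difference between rm7 and revert passed (limma log2 -2.38 ± 0.32 SE, adjusted p = 0.00852, and 0.108 without the rm7 bacteria array), and that between rm7 and KG03723 did not (adjusted p = 0.103). BomS4 and BomS6 moved less. BomS4 read 1212 and 1271 in revert and 714 and 902 in rm7, BomS6 3754 and 5125 against 2095 and 3507, and neither reached 2-fold. Both passed in the limma fit as lower (adjusted p = 0.0339 and 0.0187), BomS4 losing the call without any 1 of the 6 arrays (adjusted p of 0.0505 to 0.296) and BomS6 without the revert PBS or the rm7 PBS array (0.0718 and 0.062).

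Drosomycin and its relatives did not move as one. Drs, the gene of the antifungal peptide drosomycin, read 20396 and 27602 in revert and 9916 and 12983 in rm7, 2.06-fold and 2.13-fold lower (limma adjusted p = 0.00358, and 0.051 without the rm7 bacteria array). The neighbours Drsl2 and Drsl3 were among the lowest genes of the comparison. Drsl2 stood at 877 and 797 in revert and under the floor in rm7, at least 20.5-fold and 18.6-fold lower. Drsl3 stood at 1030 and 1254 against 61.2 and 82.1, 16.8-fold and 15.3-fold lower, with KG03723 between them at 279 and 565. Drsl4 went the other way. It read 784 and 625 in revert, 764 and 542 in KG03723, and 3581 and 4328 in rm7, so that both rm7 signals lay above the other 4 (limma log2 2.49 ± 0.19 SE, adjusted p = 0.000972). Drsl5 read 1225 and 1430 in revert and 1136 and 1245 in rm7 (adjusted p = 0.617). Mtk, which encodes the peptide metchnikowin and answers to both pathways, read 24081 and 30062 against 18424 and 29644 (adjusted p = 0.525), near the top of the arrays' range, whose highest signals were 30455 to 41453. In revert Drs was of similar brightness, as were BomS2, Bbd and TotC after bacteria, among others. Whether the upper end of the range limited these ratios was not tested.

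**Figure D2:**
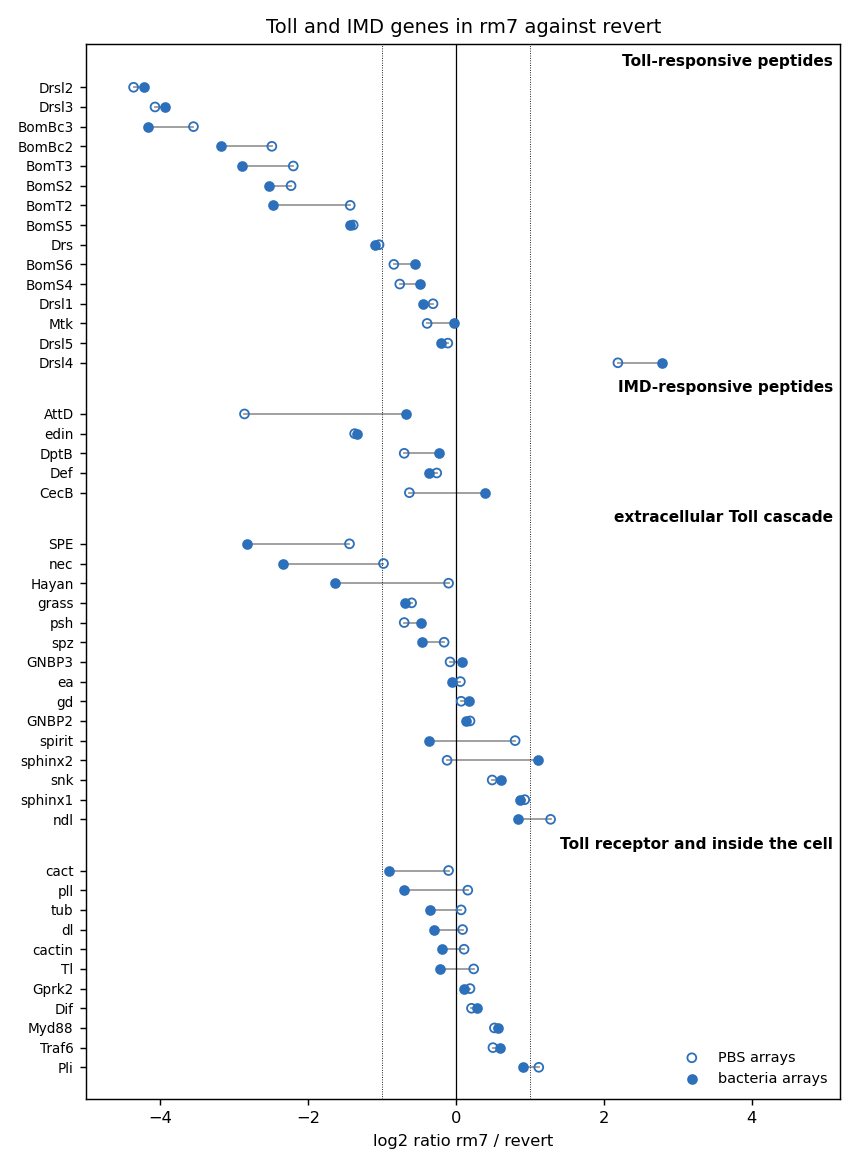
Log2 ratio of rm7 to revert for the measured Toll- and IMD-responsive peptides and for the genes of the Toll pathway outside and inside the cell, with open circles for the PBS arrays and filled circles for the bacteria arrays. Peptides reach from Drsl2 at -4.36 after PBS to Drsl4 at 2.79 after bacteria, and among the other pathway genes SPE is the one past 2-fold lower after both injections.

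Of the 5 measured IMD-responsive peptide genes, 1 was at least 2-fold lower after both injections, where 1.83% of all genes were lower, and the median log2 ratio was -0.70 after PBS and -0.37 after bacteria. That gene was edin, a secreted peptide raised by infection, at 4656 and 7832 in revert and 1799 and 3087 in rm7 (limma adjusted p = 0.0125, and 0.121 and 0.0721 without the rm7 PBS and the rm7 bacteria array). AttD, an attacin gene, read 825 and 974 in revert against 114 and 611 in rm7, a low signal on 1 of the 2 rm7 arrays. Its fitted difference did not pass (limma adjusted p = 0.158). DptB, Def and CecB, the genes of a diptericin, defensin and a cecropin, were all within 2-fold of revert on both pairs of arrays and did not pass. Among the 17 measured genes of the IMD pathway itself 0 were apart after both injections and 0 passed in the limma fit, where 1.61% of all genes were higher and 1.83% lower, so that few or none of so short a list would be apart at the background share.

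Other small secreted defence genes outside the fixed lists were picked after their values were seen. Bbd, a Toll target required with the Bomanins for survival of infection, read 17485 and 33105 in revert and 7730 and 10500 in rm7 (limma adjusted p = 0.00365). Listericin, a peptide gene named for its action on Listeria, read 3040 and 4905 against 924 and 2107 (adjusted p = 0.00455). Sid, which encodes a stress-induced DNase, stood at 345 and 938 against 169 and 173 (adjusted p = 0.0402, and 0.068 without the rm7 bacteria array). In KG03723 Bbd and Sid were near the revert levels, at 15092 and 30282 and at 374 and 1002.

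Upstream of the ligand, 1 of the 15 measured genes of the extracellular cascade was apart after both injections. Of all genes 1.61% were higher and 1.83% lower, so that for so short a list this count is near the background. The list's median log2 ratio was -0.08 after PBS and -0.05 after bacteria. SPE, the protease that cleaves Spätzle, read 2259 and 6745 in revert, 3058 and 6528 in KG03723, and 835 and 957 in rm7. Rm7 was 2.7-fold lower after PBS and 7.05-fold lower after bacteria (limma log2 -2.13 ± 0.29 SE, adjusted p = 0.00852, and 0.0523 without the variance trend). The serpin gene nec, whose product restrains the persephone branch of the cascade, followed the same order at 1362 and 3705 against 689 and 731, just short of 2-fold after PBS (adjusted p = 0.0276, and 0.062 to 0.112 with the mean over its probe sets, without the variance trend or without the injection term). The protease gene Hayan was level after PBS, at 133 and 124, and lower in rm7 after bacteria, at 407 and 132. Its fitted difference did not pass (limma adjusted p = 0.304). The recognition genes GNBP2 and GNBP3 and the protease genes grass, psh and spirit did not pass. The dorsoventral protease gene ndl was higher in rm7, at 1563 and 1337 against 643 and 746 (adjusted p = 0.00962, and 0.0591 without the rm7 PBS array).

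Downstream of the ligand, 0 of the 11 measured genes for the receptor and the intracellular steps were apart after both injections, which at 1.61% and 1.83% of all genes is near the background. Toll itself (Tl) read 2899 and 2995 in revert and 3421 and 2584 in rm7 (limma log2 0.01 ± 0.16 SE, adjusted p = 0.989). The inhibitor gene cact, itself a target of the pathway, read 3933 and 5447 against 3679 and 2921, a lower signal on 1 of the 2 rm7 arrays. It did not pass (limma adjusted p = 0.327). Pli, the gene of the Pelle-binding protein Pellino, was the 1 member that passed, as higher, at 888 and 771 against 408 and 411 (adjusted p = 0.0203, and 0.0918 and 0.0572 without the rm7 PBS and the rm7 bacteria array). Among the relatives of Toll, Tollo, which encodes the receptor Toll-8, read 216 and 247 in revert, 176 and 156 in KG03723, and 957 and 696 in rm7. It was 4.43-fold and 2.82-fold higher (adjusted p = 0.00719, and 0.063 without the rm7 PBS array). The paralogs of spz, spz3 and spz5, were close to the floor and did not pass.

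The lowest genes reached past the known peptides. CG4757 read 5095 and 18036 in revert, 1907 and 13896 in KG03723, and 82.3 and 124 in rm7, 61.9-fold and 145-fold lower. CG33229 and CG40191 were flat across injections and low in rm7 alone. CG33229 stood at 2398 and 2380 in revert and at 57.6 and 85.2 in rm7, and CG40191 at 2856 and 2915 against 107 and 85.3. MtnD, a metallothionein gene of metal binding, read 4423 and 6693 in revert and 407 and 709 in rm7, with KG03723 beside revert at 5275 and 5548. Its relative MtnC read 8695 and 9510 in revert and 1963 and 3539 in rm7, 4.43-fold and 2.69-fold lower. KG03723 lay between at 4130 and 4105, and rm7 did not pass as different from KG03723 (limma adjusted p = 0.14). Mthl2, a gene of the Methuselah family of receptors, read 555 and 993 against 71.0 and 135. CG10725 (8.54-fold and 19.5-fold) and CG9682 (8.45-fold and 6.75-fold) were of similar size. Each of the 12 lowest genes by the naming rule passed as lower than revert in the limma fit.

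Not all of the lowest genes set rm7 apart from both other genotypes. Prx6c, a peroxiredoxin gene, read 2892 and 1922 in revert, 304 and 216 in rm7, and 272 and 230 in KG03723. The 2 mutants overlapped, and their difference did not pass (limma adjusted p = 0.948). Diedel, which encodes a secreted protein known to dampen IMD signalling, read 5690 and 15872 in revert, 248 and 333 in rm7, and 450 and 4256 in KG03723. It was 22.9-fold and 47.7-fold lower in rm7 than in revert (limma log2 -5.05 ± 0.56 SE, adjusted p = 0.00408). Against KG03723 the difference did not pass (adjusted p = 0.0709).

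**Figure D3:**
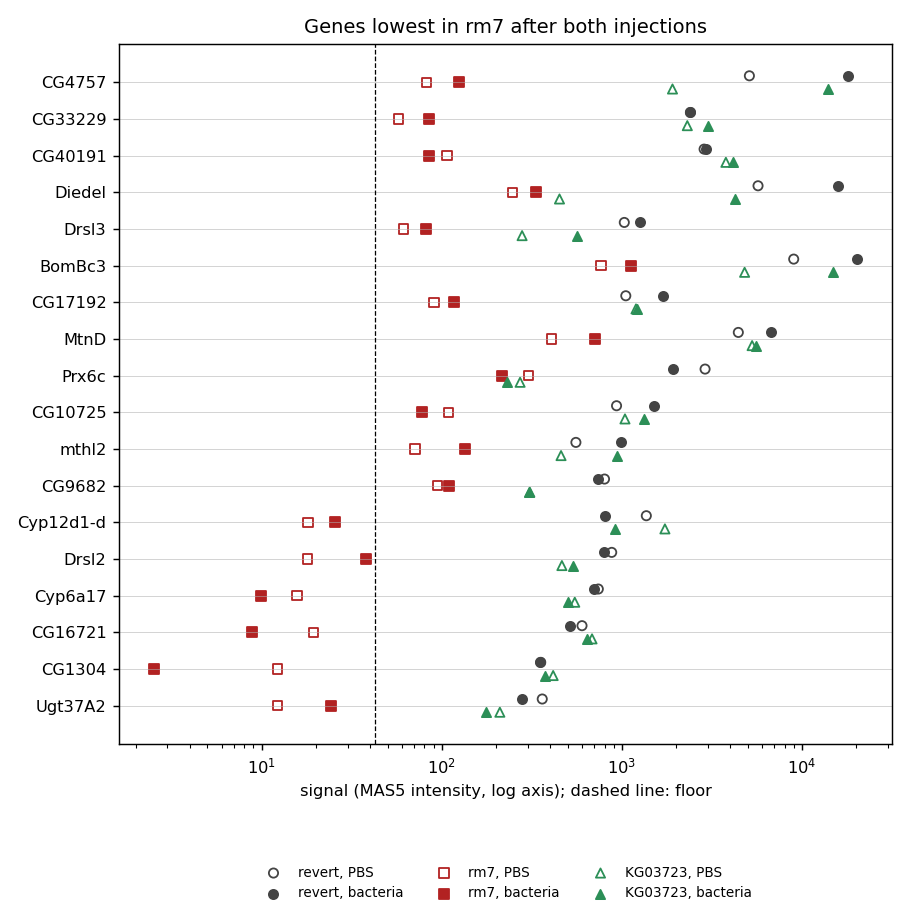
Signal on each of the 6 arrays (log axis) for the 12 lowest genes and the 6 largest bounds, with circles for revert, squares for rm7 and triangles for KG03723, open after PBS and filled after bacteria. The dashed line is the floor of 42.7. All rm7 squares lie left of all revert circles of their gene, and the KG03723 triangles lie with revert for most genes, with rm7 for Prx6c and between for Diedel, Drsl3 and CG9682.

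For 19 of the 183 lower genes, rm7 was under the floor on both arrays, and the fold is a bound. Cyp12d1-d, a cytochrome P450 gene, read 1365 and 804 in revert, so that it was at least 31.9-fold and 18.8-fold lower. A near-identical copy of this gene lies beside it in the genome, and the arrays may not separate them. Cyp6a17, another P450 gene, was at least 17.3-fold and 16.3-fold lower, from 739 and 697 in revert. CG16721, CG1304 and Ugt37A2, the last a UDP-glycosyltransferase gene, were at least 12.0-fold, 8.26-fold and 6.52-fold lower after bacteria. In KG03723 all 5 of these genes were well above the floor, with signals between 177 and 1731.

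At the other end, CG13813 read 50.9 and 57.3 in revert, 222 and 111 in KG03723, and 1569 and 1186 in rm7. It was 30.9-fold and 20.7-fold higher in rm7 (limma log2 4.66 ± 0.31 SE, adjusted p = 0.000644). Obp51a, an odorant-binding protein gene, lay between 181 and 224 on the other 4 arrays and read 3634 and 4478 in rm7. Pxt, whose peroxidase makes prostaglandins in the maturing egg chamber, read 346 and 497 in revert, 181 and 98.4 in KG03723, and 4722 and 3693 in rm7 (adjusted p = 0.00206, and 0.0501 and 0.0505 without the rm7 PBS and the rm7 bacteria array). DCTN3-p24, a dynactin subunit gene, stood at 126 and 120 in revert and 1324 and 1152 in rm7. CG6296 stood at 74.2 and 148 in revert and at 821 and 896 in rm7. The genes CG40298, CG8012 and CG31778 were 9.68-fold, 8.39-fold and 8.38-fold higher after bacteria. Each of the 12 highest genes passed in the limma fit, and all but Vago also passed as higher than KG03723.

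Vago, a secreted antiviral factor gene, read 130 and 92.0 in revert, 742 and 791 in rm7, and 1849 and 779 in KG03723. Both mutants were thus above revert, and their difference did not pass (limma adjusted p = 0.348). Srg2, a gene named for its regulation by Sting, stood highest in KG03723, at 1672 and 1316, with rm7 at 571 and 263 and revert at 75.5 and 106. Rm7 was higher than revert (adjusted p = 0.0199, and 0.108 without the rm7 PBS array) and lower than KG03723 (adjusted p = 0.0263).

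For 29 of the 161 higher genes, revert was under the floor on both arrays. Both revert values then equal the floor and have no spread, so the p-value of such a gene can be too small. The hairpin RNA gene hpRNA:CR32207 read 754 and 629 in rm7 and under the floor on the other 4 arrays, at least 17.7-fold and 14.7-fold higher. CG17147 (654 and 835) and the esterase gene alpha-Est2 (475 and 318) were likewise above the floor in rm7 alone. These 3 were too dim for the fit, so no test was made. Ser12, a serine protease gene, was at 548 and 682 in rm7 and under the floor in revert, but at 376 and 317 in KG03723, and rm7 did not pass as different from KG03723 (limma adjusted p = 0.129). CG43085 was at least 25.2-fold and 12.4-fold higher in rm7 than in revert (adjusted p = 0.00599, and 0.0563 without the rm7 PBS array). CG7300 was at least 8.97-fold and 14.5-fold higher than in revert, and its difference from KG03723 did not pass (adjusted p = 0.0608).

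**Figure D4:**
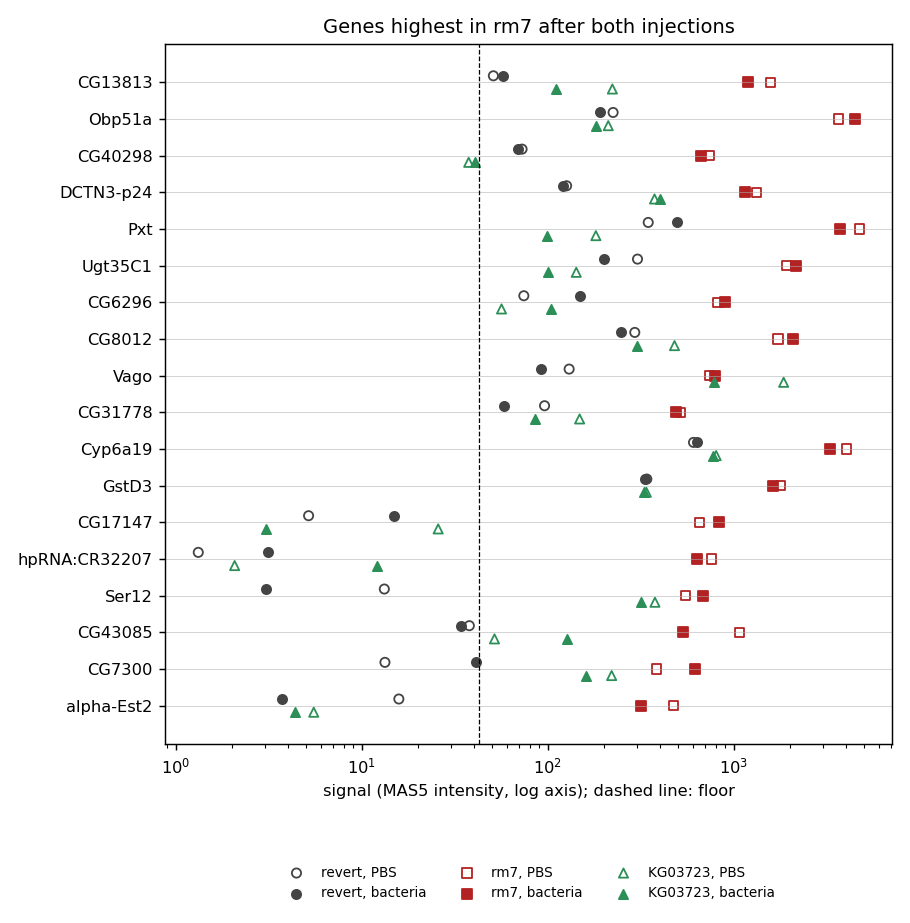
Signal on each of the 6 arrays (log axis) for the 12 highest genes and the 6 largest bounds, with the same symbols as in the plot of the lowest genes and the floor as a dashed line. All rm7 squares lie right of all revert circles of their gene. The KG03723 triangles lie with revert for Obp51a, Cyp6a19 and GstD3, and nearer to rm7 for Vago and Ser12.

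Enzymes of detoxification moved in both directions. Of 72 measured cytochrome P450 genes, which encode oxidases of hormones and foreign compounds, 9 (12.5%) were at least 2-fold higher in rm7 after both injections and 6 (8.33%) lower, against 1.61% and 1.83% of all genes. Their median log2 ratio was 0.08 after PBS and 0.32 after bacteria, and 9 passed as higher and 8 as lower in the limma fit. The neighbours Cyp6a19 and Cyp6a23 were both higher, the first at 606 and 634 in revert and 4043 and 3271 in rm7 (limma adjusted p = 0.000361), the second at 697 and 602 against 1464 and 1565. Cyp6a17, the next gene on the other side of Cyp6a23, was under the floor in rm7, as given above. Cyp6a13 and Cyp6a14, also neighbours, were lower, at 683 and 639 against 197 and 193 and at 445 and 305 against 148 and 149. Cyp6a23, Cyp6a13 and Cyp6a14 were chosen after their values were seen, and Cyp6a14 lost its call (adjusted p = 0.0234) without the revert PBS or either rm7 array (0.0578 to 0.0985).

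The conjugating enzymes were divided too. Of 33 measured glutathione transferase genes 2 (6.06%) were higher after both injections and 3 (9.09%) lower, and of 26 UDP-glycosyltransferase genes 2 (7.69%) were higher and 2 lower, again against 1.61% and 1.83% of all genes. GstD3 read 340 and 333 in revert and 1787 and 1622 in rm7, with KG03723 beside revert at 338 and 327. GstE1 read 1656 and 1617 in revert and 246 and 318 in rm7, 6.73-fold and 5.09-fold lower (limma adjusted p = 0.000855). Ugt35C1 read 303 and 199 in revert and 1910 and 2163 in rm7, and Ugt36E1 508 and 474 against 117 and 129. Of 30 measured odorant-binding protein genes 3 were higher and 4 (13.3%) lower. The neighbours Obp56a, Obp56d and Obp56e were all in the lower group, Obp56a at 1438 and 956 in revert and 322 and 292 in rm7. KG03723 read 396 and 287 for Obp56a, overlapping rm7, and the difference between the mutants did not pass (adjusted p = 0.794). Obp57a, a gene of the higher group, read 619 and 855 in revert, 2322 and 2635 in rm7 and 1938 and 1872 in KG03723, so that the mutants did not overlap. Their difference did not pass either (adjusted p = 0.242).

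Genes of stress peptides and of the gut came next. TotC, one of the Turandot peptides secreted under stress, was among the brightest genes of revert at 25098 and 26711 and read 5294 and 6095 in rm7 (limma log2 -2.19 ± 0.10 SE, adjusted p = 0.00034). Its neighbour TotB read 174 and 293 in revert and was under the floor in rm7, at least 4.07-fold and 6.85-fold lower. The lysozyme gene LysX, of a family expressed mainly in the gut, read 1051 and 1047 in revert, 12524 and 11235 in KG03723, and 23.7 and 85.5 in rm7. The 3 genotypes thus did not overlap, and rm7 was at least 24.6-fold lower than revert after PBS and 12.2-fold lower after bacteria (adjusted p = 0.000631). Of the 3 measured lysozyme genes 2 were lower after both injections and 0 higher, against 1.83% and 1.61% of all genes. The other lower one, LysS, read 152 and 167 in revert, 60.5 and 35.2 in KG03723, and 54.8 and 37.3 in rm7. It passed (adjusted p = 0.0174) but lost the call without either rm7 array. LysP was 2-fold higher after PBS and 1.6-fold after bacteria, at 1279 and 1185 against 638 and 739 (adjusted p = 0.0407, and 0.118 without the variance trend). It lost the call without the revert PBS or either rm7 array. For the lists that follow, 1.61% of all genes were higher and 1.83% lower after both injections. In the limma fit 2.61% of the fitted genes passed as higher and 3.0% as lower. Of 16 measured heat shock protein genes 0 were apart after both injections, near the background for so short a list. Their medians were -0.11 and 0.27, and 1, Hsc70-2, passed as lower in the limma fit (adjusted p = 0.0416, and 0.0613 without the variance trend). Hsc70-2 also lost the call without the revert PBS array, either KG03723 array or either rm7 array. Of 38 measured digestive enzyme genes 4 (10.5%) were lower after both injections and 1 (2.63%), Ser12, was higher, and in the limma fit 12 passed as lower and 2 as higher. The list's median was -0.24 after PBS and -0.40 after bacteria. The trypsin gene epsilonTry read 11519 and 13736 in revert, 6197 and 6531 in KG03723, and 3054 and 3445 in rm7 (adjusted p = 0.000361), and Ser6 842 and 1013 against 203 and 259 in rm7. Of 24 measured serpin genes 2 (8.33%) were lower, Spn42Dd at 981 and 1450 against 287 and 341 (adjusted p = 0.000858), and Spn28Dc, a restraint on melanization, at 288 and 693 against 130 and 105. The fitted difference of Spn28Dc did not pass (limma adjusted p = 0.0565).

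**Figure D5:**
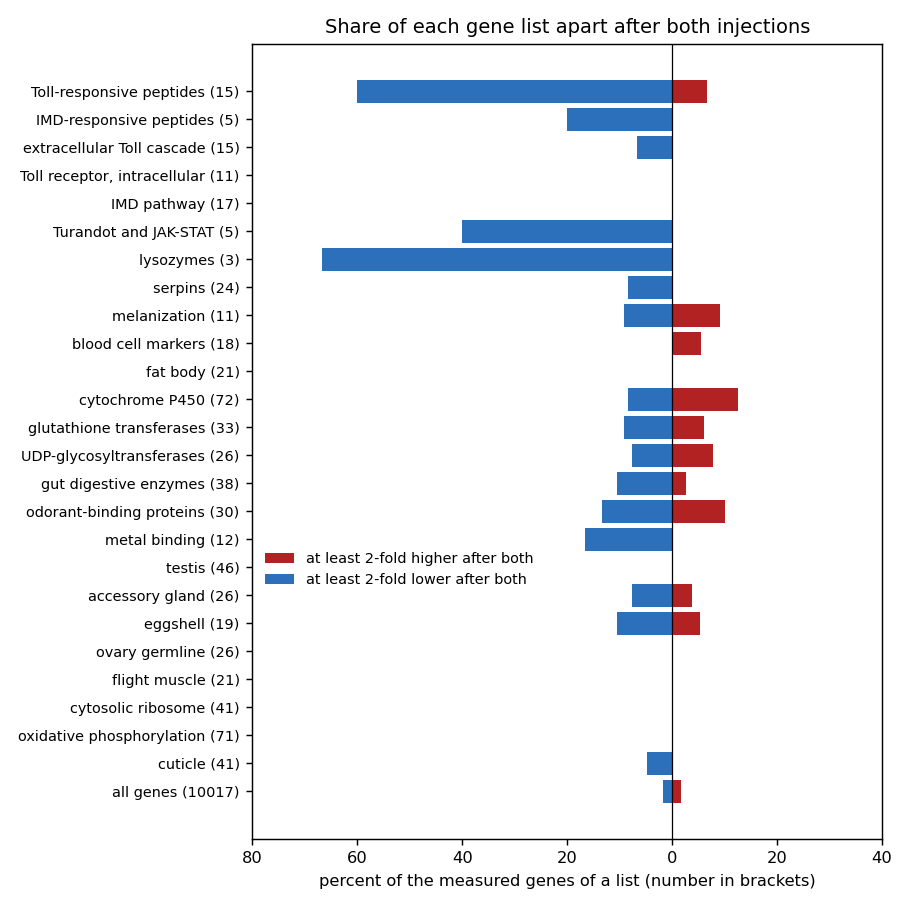
Share of the measured genes of 25 lists that were at least 2-fold lower (blue, to the left) or higher (red, to the right) in rm7 after both injections, with the number measured in brackets and all genes in the last row. The Toll-responsive peptides have 9 of 15 lower and 1 higher, the P450 genes lie on both sides, and the testis, ovary germline, ribosome and respiratory chain lists have none.

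Markers of tissues were read beside these results. Of all genes 1.61% were higher and 1.83% lower after both injections. In the limma fit 2.61% of the fitted genes passed as higher and 3.0% as lower. The testis list of 46 genes had 0 genes apart after both injections, and its median log2 ratio was -0.64 after PBS and 0.71 after bacteria. Its summed signal was 65755 and 40157 in revert and 40101 and 58935 in rm7. The accessory gland list of 26 genes behaved alike, with medians of -0.85 and 0.27, and held 3 genes apart in 1 direction. The seminal protein genes Acp53C14c, at 844 and 354 against 61.0 and 132, and Sfp33A3, at 2577 and 1563 against 440 and 586, were lower in rm7, while Sfp24Bb, at 1380 and 503 against 4710 and 5509, was higher. Without the rm7 PBS array Acp53C14c lost its call (limma adjusted p = 0.0291, then 0.128), and without the rm7 bacteria array Sfp24Bb did (0.00785, then 0.0723). The part of the shift of all male genes in these values was not tested. Of the 19 measured eggshell genes 1, Pxt, was higher after both injections and 2 were lower, and in the limma fit 5 passed as higher and 3 as lower. The chorion genes Cp36 (13252 and 11904 against 6300 and 4474) and Cp38 (9928 and 9197 against 4895 and 2723) were the lower ones, Cp38 without a call when the rm7 bacteria array was left out (adjusted p = 0.00636, then 0.0679). The vitelline membrane gene Vm26Aa read 15230 and 15188 in revert and 21688 and 23963 in rm7. Cp16, Cp18 and Cp19, chorion genes of the latest egg chambers, were low on the rm7 bacteria array alone, at 660, 1330 and 622. The part of the number of late egg chambers in the lower Cp36 and Cp38 was not tested. The ovary germline, yolk, flight muscle, fat body, cytosolic ribosome and respiratory chain lists held 0 genes apart after both injections. They have 3 to 71 measured members, and few or none of lists this short would be apart at the background share. In the limma fit 2 of the 21 flight muscle genes, Act88F and TpnC4, passed as lower. Of the 21 fat body genes 1, Lsd-1, passed as higher. Each lost the call without the variance trend (adjusted p of 0.0657 to 0.12). Of the fat body genes 1 was at least 2-fold higher after PBS and 4 after bacteria, against 2.54% and 5.47% of all genes, and 0 were lower after either. Of the 18 measured blood cell markers 1 was higher after PBS, 2 were higher after bacteria and 0 were lower after either, with medians of -0.03 and 0.25. The member apart after both, PPO3, read 28.3 and 55.4 in revert and 113 and 146 in rm7. The peroxidase gene Pxn read 162 and 149 against 293 and 408, and the phagocyte genes Hml, NimC1 and eater were within 2-fold of revert on both pairs.

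The genes around spz were read separately. Of the 100 measured genes nearest to it on arm 3R, 50 on each side, 2 were higher and 3 lower in rm7 after both injections, 5.0% of them. The share was 3.5% among the nearest 200 and 6.0% among the nearest 400, and over the whole arm it was 3.43%, and no test was made of these shares. The other large arms had between 2.78% (X) and 3.92% (2R). The nearest were CG17192, CG6295 and CG6296, which lie 5 to 7 measured genes from spz. They went in different directions. CG17192 read 1050 and 1683 in revert against 90.4 and 117 in rm7, while CG6295 read 1339 and 1723 against 5501 and 6772, and CG6296 was higher as given above. Over the genome, 20 pairs of neighbouring measured genes were both in the lower group and 6 pairs both in the higher group, among them the Bomanin, Turandot, Obp56, Drsl and Cyp6a neighbours. In 12 further pairs the neighbours were in opposite groups, among them Drsl3 and Drsl4, Cyp6a17 and Cyp6a23, GstE1 and GstE10, and CG17192 and CG6295.

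A further set was picked after the values were seen, for what its members encode. Ry, the gene of xanthine dehydrogenase, read 268 and 338 in rm7 and between 1.18 and 12.6, far under the floor, on the other 4 arrays. Among the insulin-like peptide genes, Ilp7 was under the floor in revert and rm7, and Ilp8 read 770 and 707 in revert and 400 and 210 in rm7. Ilp2, a hormone gene of the brain, read 69.5 and 54.1 in revert and 194 and 190 in rm7 (limma adjusted p = 0.0182, and 0.0635 to 0.134 without either rm7 array), and Ilp5 was under the floor in revert and at 156 and 158 in rm7 (adjusted p = 0.024, and 0.0703 against KG03723). The limit on p-values of genes with both revert arrays at the floor holds for Ilp5. Nos, the nitric oxide synthase gene, was under the floor on the other 4 arrays and read 176 and 201 in rm7. Pdk, which encodes the kinase that switches off pyruvate dehydrogenase, read 2137 and 1776 in revert, 2147 and 1725 in KG03723, and 709 and 495 in rm7 (adjusted p = 0.000855). Anp, the gene of andropin, a peptide of the male ejaculatory duct, read 7752 and 7093 in revert, 10336 and 8481 in KG03723, and 1372 and 1698 in rm7 (adjusted p = 0.000631).

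Most of these genes were read by a single probe set above the floor. Of the 344 genes apart after both injections, 20 had another probe set of their own. For 2 of them, 2mit and Pdk, every other probe set was also at least 2-fold apart. For 9, no other probe set had the same sign on both pairs of arrays, among them Mical, Fancd2 and hdly. The receptor gene tkv, at 2469 and 2355 in rm7 against 542 and 485 in revert by its brightest probe set, had log2 ratios of 0.61 and 0.36 on another. Among probe sets with no annotated gene, 22 were higher and 31 lower after both injections, 4.85% of 1092, against 3.33% of those with 1 gene.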

How the data were processed

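Each deposited value is the linear intensity of a probe set on an array. Per the submitters' processing notes the authors used MAS5, in a version not given in the sources. The arrays are single-colour Affymetrix arrays, labelled from whole-fly total RNA per the labels' protocols. No detection call or scan date was used. Precision is limited by the number of arrays.

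Of 18952 probe sets, 183 were controls and were dropped. Annotation of the platform assigned 13647 to 1 gene, 402 to several and 4720 to none. Through gene identifiers, 13544 of the 13647 were found in RefSeq's Release 6 gene table and 0 symbols changed. The brightest probe set on average stood for a gene (11982 genes). Signals were floored at 42.7 and then logged to base 2. A fold with its dimmer array at the floor is a bound, written "at least". Where both arrays of a genotype are at the floor, they have no spread in the fit, and the p-value can be too small. Lists are described by their members above the floor on at least 1 of the 4 arrays.

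The test was limma 3.58.1 in R 4.3.3, with lmFit and eBayes, a variance trend and Benjamini-Hochberg adjustment at 0.05 over all genes fitted. The contrast of rm7 with KG03723 comes from the same fit, and both contrasts share the rm7 arrays. Each p-value tests a difference between 2 genotypes. Its error comes from the departure from additivity over 6 arrays, not from the spread between flies. That error has 2 residual degrees of freedom. It is drawn towards the variance trend of all fitted genes, which counts for 4.81 further degrees of freedom (median). The fit and the fold rule were also run on simulated data with additive effects, independent errors and no floor. That run cannot check the effects of the floor, of other differences between stocks or of single arrays.

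The naming rule takes spz and the measured members of the Toll and IMD lists. It takes the 12 genes highest and the 12 lowest among those measured on all 4 arrays, and the 6 largest bounds each way. These are ordered by the smaller of the 2 ratios. It also takes up to 3 leading members of each other list of 36, the genes apart in opposite directions, and the 6 genes apart nearest to spz. Not every gene that the rule takes is given above. Other names are tissue markers, neighbours in gene order, genes with another probe set or genes at the edge of the fold rule, or are marked as chosen after their values were seen. The members and lists were chosen with earlier results of these data known. Alternatives were other normalizations, floors, probe-set summaries, fold thresholds and fits, and leaving out each array.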

Additional observations from a re-analysis of the deposited data

Results flagged for a closer look

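Some genes were at least 1.5-fold apart in opposite directions after the 2 injections, with the single rm7 array above the single revert array in one pair and below it in the other. With 1 array on each side these differences between injections were not tested. The values below are the log2 ratio of rm7 to revert after bacteria minus that after PBS.

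Genes of the testis and of seminal fluid are among them. The testis genes ProtA, ProtB, which encode the protamines of sperm chromatin, and c-cup differed by 1.22, 2.27 and 1.94, and the seminal serpin gene Acp76A by 1.67. The median of the testis list differed by 1.35, and 38 of its 46 genes were lower in rm7 after PBS and higher after bacteria. The testis gene dj was not of this kind, at log2 ratios of 0.52 and 0.75. ProtB read 464 and 175 in revert, after PBS and after bacteria, and 260 and 474 in rm7. The 3 genes at least 2-fold apart each way behaved alike, with CG43072 at 2.27, CG32445 at 2.09 and Rsph4a, named for a radial spoke protein of the flagellum, at 2.16.

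Lsp2, the gene of a larval storage protein of the fat body, differed by 2.47. It read 2431 and 218 in revert, 5719 and 362 in KG03723, and 1583 and 787 in rm7. The chorion gene Cp16 differed by -3.57, from 5612 and 5177 in revert to 8507 and 660 in rm7.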

How the results depend on the processing

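The count of genes at least 2-fold higher in rm7 after both injections moved from 161 to 242 with the floor at the 20th percentile, to 83 with it at the 60th and to 67 at 3-fold. The count of lower genes moved from 183 to 107 with the floor at the 60th percentile and to 74 at 3-fold. Without the variance trend, limma called 130 higher and 155 lower genes, against 249 and 286. Leaving out 1 array at a time gave 72 to 302 higher genes and 162 to 317 lower ones. All other alternatives run kept these 4 counts within 1.5 times. Of 115 named genes that passed in the fit, 0 changed direction under any alternative and 62 passed under every alternative that could be run for them. With 1 array left out, 40 of the 115 lost the call at least once, 31 of them only without an rm7 array. No paired analysis was possible because the labels give no replicate numbers, other than the pairing of arrays by injection, which the fit holds as its injection term. Without that term 305 genes were higher and 296 lower, and Bbd, BomS2, BomS5, BomS6, BomT2, Drs, Listericin, Sid and nec lost the call (adjusted p of 0.058 to 0.208). Without the variance trend Acp53C14c, BomS2, BomS4, BomS6, Cp38, Ilp5, SPE, Sid, Srg2, edin, ndl and nec did (0.0503 to 0.125), among other genes. Omitting an array leaves an arm whose lone array is assumed to vary like the others. It also removes that arm's departure from additivity, so no pass gained by omitting an array is given for a named gene. Dim genes are limited by the floor, since 19 lower and 29 higher genes have bounds.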
